A study of Mus musculus with 8 samples.

Results

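The perilipins and the proteins that work beside them on lipid droplets were examined in sorted cells of the mouse growth plate. The members were chosen by protein family, with earlier results of the same SAG against DMSO comparison known, and 10 genes were named: the perilipins Plin1 to Plin5, the CIDE proteins Cidea, Cideb and Cidec, and the lipases Pnpla2 and Lipe. Of these, 8 were among the 16536 genes of the count table, and Cidea and Cidec were not analysed here. Because this comparison was in view when the genes were chosen, their differences between the treatments are given as a description, without a test of their own.

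The animals were Pthrp-mCherry mice, in which the mCherry reporter marks cells that express parathyroid hormone-related protein. They received a daily intraperitoneal injection from P30 to P36 of either SAG, a small-molecule agonist of Smoothened that activates Hedgehog signaling (n = 4), or its vehicle DMSO (n = 4), and were killed at P38. Cells of the femoral growth plates that carried both mCherry and surface CD73 were sorted by FACS, and each mouse gave 1 RNA sequencing library. Both groups carried the reporter, and the labels do not give the sex of the animals. A fall in the share of a cell type and a fall in RNA per cell cannot be told apart in such bulk libraries.

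The libraries held 24971992 to 46593090 counts, with the fewest counts and the fewest detected genes (14416) in DMSO mouse 4. A count of 3, used here as the detection floor, corresponded to 0.067 to 0.114 CPM (counts scaled by the size of the library). Chondrocyte markers were abundant in all 8 libraries, with a summed level of 48271 to 111960 CPM over 13 genes in DMSO mice and 19435 to 54641 CPM in SAG mice, and 0 of the 13 genes were called different by edgeR. All 13 had a log2 fold change below 0, 12 had an unadjusted p under 0.05, and DESeq2 and limma voom called 6 and 9 of them lower. The 14 neutrophil markers summed to 5390 to 15225 CPM in DMSO mice and 28944 to 46150 CPM in SAG mice, and 11 of the 14 were called higher. The 9 B-lineage markers summed to 75.7 to 336 CPM in DMSO mice and 16.7 to 36.1 CPM in SAG mice. The adipocyte list, of which 6 of 10 genes were in the table, reached 13.01 CPM at most in DMSO and 10.3 CPM in SAG mice. The sums of the macrophage, erythroid, endothelial and marrow stroma lists overlapped between the groups. The neutrophil and B-lineage sums did not overlap, and the chondrocyte sums overlapped through DMSO mouse 4 alone. The part of these cell types in the differences described for lipid genes was not tested.

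**Figure D1:**
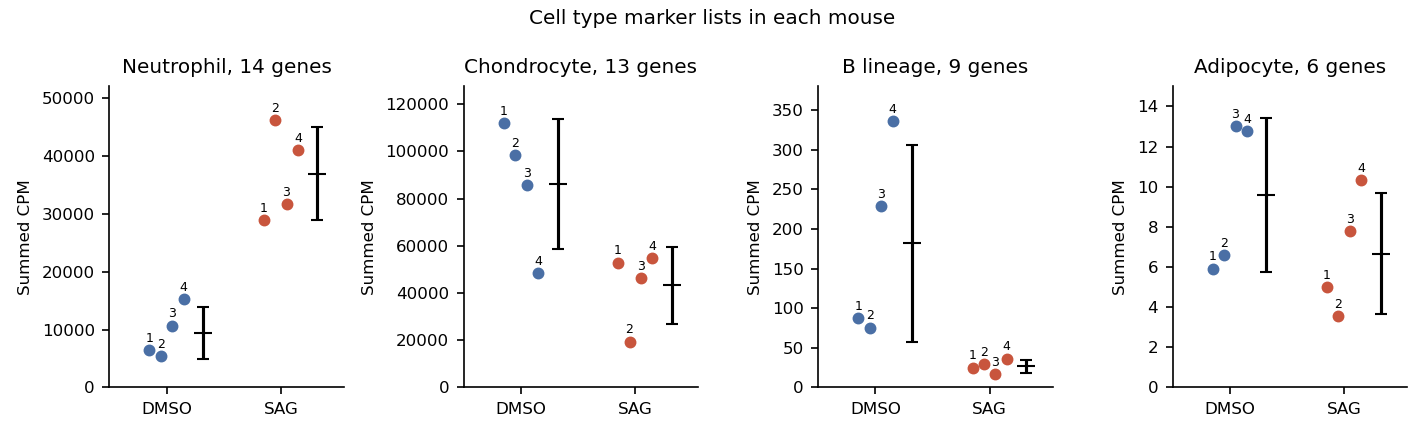
Summed CPM (vertical axis) of 4 lists of cell type markers in each DMSO and SAG mouse, with points numbered by replicate and bars for the mean ± SD of 4 mice. The neutrophil sums of all SAG mice (28944 to 46150 CPM) lay above those of all DMSO mice, and the B-lineage sums lay below. The adipocyte sums overlapped, and the chondrocyte sums overlapped through DMSO mouse 4 alone (48271 CPM).

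Lipid droplets store triglycerides and sterol esters under a single layer of phospholipid. Perilipins coat this surface and control access of lipases: Plin2 and Plin3 are found in most cell types, Plin1 and Plin4 are best known from adipocytes, and Plin5 from tissues that burn fatty acids, such as heart and oxidative muscle. Adipose triglyceride lipase, the product of Pnpla2, removes the first fatty acid from a triglyceride, and hormone-sensitive lipase, the product of Lipe, acts mainly on the diglyceride that remains. CIDE proteins promote the fusion and growth of droplets.

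The promoters of 3 members are shown because Plin2 had the highest mean perilipin level and Plin5 and Pnpla2 were called higher in SAG mice. Each covers 250 bases before and 50 after a RefSeq start site in GRCm38.p6, written 5′ to 3′ on the strand of the gene, at chr4:86670010-86670309 (minus strand) for Plin2, chr17:56117499-56117798 (minus strand) for Plin5 and chr7:141454938-141455237 (plus strand) for Pnpla2. Capitals mark AGGTCA, the core element of many nuclear receptor sites including those of PPARs, and ACGTG, the core of the hypoxia response element, each searched on both strands.
Plin2: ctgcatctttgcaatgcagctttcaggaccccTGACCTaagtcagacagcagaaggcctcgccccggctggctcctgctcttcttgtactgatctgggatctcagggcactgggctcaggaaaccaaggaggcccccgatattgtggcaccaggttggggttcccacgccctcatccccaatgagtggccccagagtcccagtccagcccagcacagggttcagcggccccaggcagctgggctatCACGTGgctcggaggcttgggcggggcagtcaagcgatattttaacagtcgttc
Plin5: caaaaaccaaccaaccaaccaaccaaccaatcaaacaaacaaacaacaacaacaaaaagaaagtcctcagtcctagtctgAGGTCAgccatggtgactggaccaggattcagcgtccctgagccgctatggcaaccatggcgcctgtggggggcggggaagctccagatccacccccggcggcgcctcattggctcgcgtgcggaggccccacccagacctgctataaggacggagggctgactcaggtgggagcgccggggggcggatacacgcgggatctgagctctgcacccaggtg
Pnpla2: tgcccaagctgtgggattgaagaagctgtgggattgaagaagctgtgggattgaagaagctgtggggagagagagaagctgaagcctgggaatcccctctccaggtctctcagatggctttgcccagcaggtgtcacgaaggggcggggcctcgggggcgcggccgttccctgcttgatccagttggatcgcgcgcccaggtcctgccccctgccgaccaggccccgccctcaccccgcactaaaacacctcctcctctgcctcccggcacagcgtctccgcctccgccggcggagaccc

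The Plin2 promoter held AGGTCA on its reverse strand and the palindrome CACGTG next to the start site. A palindrome reads as ACGTG on both strands, so both matches are the same site. The Plin5 promoter shown held 1 AGGTCA, 170 bases before the start, and the Pnpla2 promoter held neither motif. Over the 10 promoters that RefSeq gives for the 8 members, 3 held AGGTCA (Plin2 and both Plin5 promoters) and 2 held ACGTG (Plin2 and Lipe). Of all 32851 mouse promoters of this length, 16.3% held AGGTCA and 19.6% held ACGTG. With so few promoters, nothing is read from these shares. These matches are of letters only.

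Plin2 and Plin3 made up most of the perilipin transcripts in every mouse. Per length of the gene, Plin2 stood at 34.7 ± 4.54 TPM (counts per exon length, scaled to the same total in each library; SD, n = 4) in DMSO and 38.1 ± 11.8 TPM in SAG mice, and Plin3 at 25.2 ± 9.35 and 27.6 ± 7.17 TPM. Together both genes gave 92.1, 92.7, 94.2 and 94.9% of perilipin transcripts per length in DMSO mice 1 to 4, and 85.8, 92.0, 87.7 and 96.9% in SAG mice 1 to 4. The SAG values thus lay on both sides of the DMSO values. In DMSO mouse 3, Plin3 (33.3 TPM) exceeded Plin2 (30.5 TPM).

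**Figure D2:**
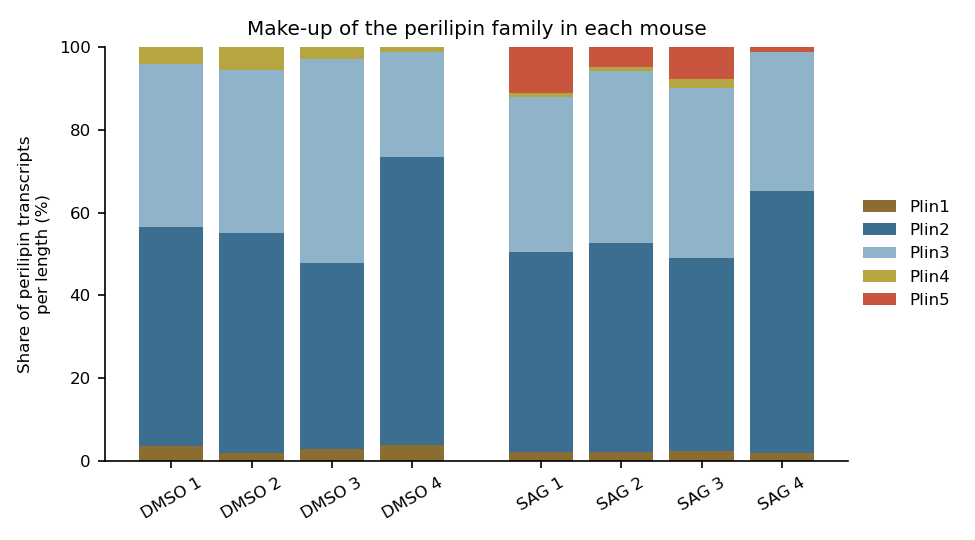
Share of perilipin transcripts per length (%, stacked bars) of Plin1 to Plin5 in each of the 4 DMSO and 4 SAG mice. Plin2 and Plin3 filled 85.8 to 96.9% of each bar, and Plin5 appeared in SAG mice, where it took 1.17 to 11.0%.

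The order of levels per length in DMSO mice was Plin2, Pnpla2 (27.9 ± 7.13 TPM), Plin3, Lipe (8.67 ± 4.75 TPM), Plin4 (2.33 ± 1.3 TPM) and Plin1 (1.95 ± 0.719 TPM), with Plin5 and Cideb at 0 counts. Plin2, Pnpla2 and Plin3 overlapped in their ranges over mice, as did Plin3 and Lipe, and Plin4 and Plin1, whose order turned with the longest transcript as length. In SAG mice Pnpla2 came first at 53.3 ± 9.96 TPM, ahead of Plin2. Their ranges over mice overlapped (45.0 to 67.7 and 21.4 to 47.3 TPM), as did those of Plin2 and Plin3. Plin5 (4.59 ± 4.03 TPM) lay between Lipe (10.4 ± 2.68 TPM) and Plin1 (1.53 ± 0.395 TPM), with a range of 0.873 to 10.3 TPM that overlapped both. Using the longest transcript in place of all exons as the length put Plin2 first in SAG mice as well.

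In the comparison of SAG with DMSO mice across all 15421 genes tested by edgeR, 2.62% were called higher and 0.266% lower at an adjusted p under 0.05. Among the members 2 of 8 were called higher, Plin5 and Pnpla2, and 0 were called lower, with 0 below DMSO at an unadjusted p under 0.05 and 0 called lower by limma voom or, among the 4 members for which it gave an adjusted p, DESeq2. Every SAG mouse lay above every DMSO mouse for 3 of 8 members (Plin5, Cideb and Pnpla2), which held for 7.9% of all genes, and every SAG mouse lay below for 0 of 8, against 3.84% of all genes. Plin5 and Cideb passed the filter on low counts through their SAG libraries alone. Since the choice of members used this contrast, nothing is read from these shares.

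**Figure D3:**
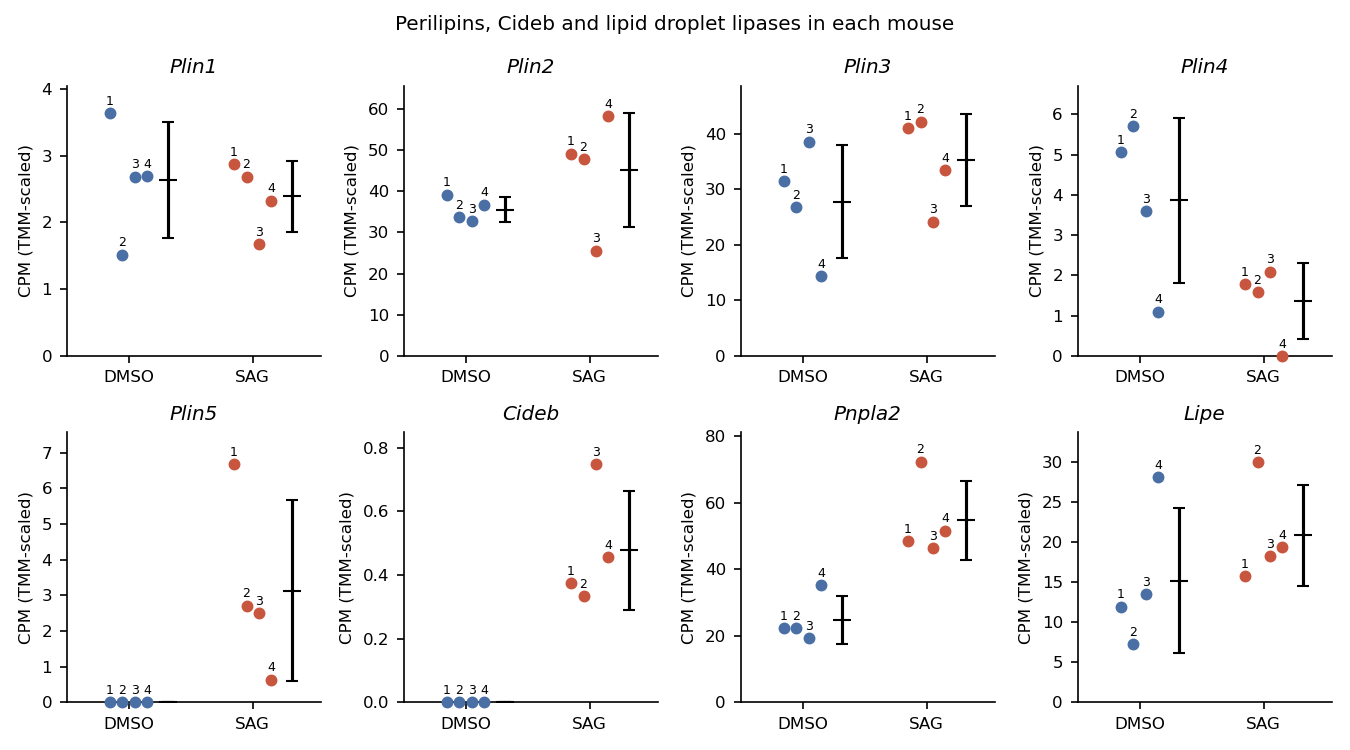
TMM-scaled CPM (vertical axis, from 0) of the 8 members in each DMSO and SAG mouse, with points numbered by replicate and bars for the mean ± SD of 4 mice. Plin5, Cideb and Pnpla2 showed no overlap between the treatments, whereas the groups overlapped for Plin1, Plin2, Plin3, Plin4 and Lipe.

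Plin2, which coats droplets in most cells, measured 39.2, 33.7, 32.7 and 36.7 CPM in DMSO mice 1 to 4 and 49.1, 47.8, 25.6 and 58.2 CPM in SAG mice 1 to 4. Of the SAG mice, 3 exceeded all DMSO mice and SAG mouse 3 was below them all. The log2 fold change was 0.35 (SE 0.27, 95% interval -0.24 to 0.93), and Plin2 was not called. Plin2 lies at chr4:86648386-86670060 on the minus strand.

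Plin3, a perilipin that moves between the cytosol and nascent droplets, measured 31.4, 26.8, 38.6 and 14.4 CPM in DMSO mice and 41.0, 42.2, 24.2 and 33.5 CPM in SAG mice. DMSO mouse 4 was the lowest and the groups overlapped. The log2 fold change was 0.34 (SE 0.33, 95% interval -0.37 to 1.06), and Plin3 was not called.

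Plin1, the perilipin that guards adipocyte droplets, was low throughout, with 3.64, 1.52, 2.69 and 2.70 CPM in DMSO mice and 2.87, 2.69, 1.67 and 2.33 CPM in SAG mice. The groups overlapped, with a log2 fold change of -0.14 (SE 0.78). Adipoq, the adipocyte hormone adiponectin, reached at most 2.83 CPM, in SAG mouse 4.

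Plin4, which coats small nascent droplets, measured 5.06, 5.72, 3.59 and 1.10 CPM in DMSO mice and 1.78, 1.59, 2.09 and 0 CPM in SAG mice. The SAG mice were below DMSO mice 1 to 3 and overlapped through DMSO mouse 4, the shallowest library. The log2 fold change was -1.50 (SE 1.24, 95% interval -4.21 to 1.21), and Plin4 was not called. It was -3.66 by limma voom and -2.23 with a replicate block, and Plin4 was not called in either.

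Plin5, which ties droplets to mitochondria and binds the coactivator Abhd5, had 0 counts in all 4 DMSO mice and 232, 114, 100 and 28 counts in SAG mice 1 to 4. These SAG counts were 6.67, 2.71, 2.49 and 0.64 CPM, all above the detection floor of every library. The mean level was at least 36.6-fold higher than the mean floor of the DMSO libraries, and the lowest of the SAG mice, mouse 4, was at least 7.48-fold higher. Without SAG mouse 1 the mean level was at least 22.8-fold higher. Within SAG mice Plin5 differed 10.4-fold between mice 1 and 4, and its counts were 0.0124 to 0.138 of those of Pnpla2 in the same mouse. Plin5 was called higher.

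Plin5 sits between Lrg1 and Plin4 at chr17:56111601-56117596, all on the minus strand. Plin4 begins 1797 bases beyond the end of Plin5, and Lrg1, which encodes a secreted leucine-rich glycoprotein made by neutrophils among other cells, ends 2081 bases before its start. Lrg1 measured 24.9, 28.0, 37.1 and 57.4 CPM in DMSO mice and 147, 188, 97.9 and 125 CPM in SAG mice, and rose with a log2 fold change of 1.92 (SE 0.30, edgeR adjusted p = 0.0108). The differences of these neighbouring genes were not tested against each other.

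**Figure D4:**
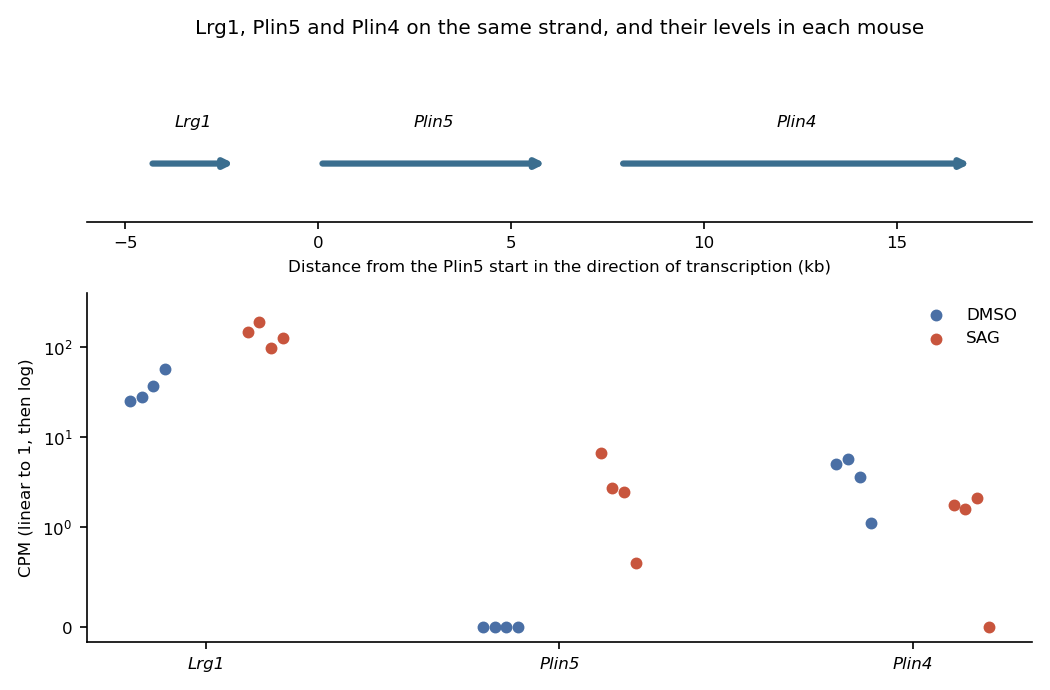
Positions of Lrg1, Plin5 and Plin4 (arrows, kb from the Plin5 start in the direction of transcription) above their CPM in each DMSO and SAG mouse on an axis that is linear to 1 and logarithmic beyond. Lrg1 and Plin5 were higher in every SAG mouse, with Plin5 at 0 in every DMSO mouse, and the Plin4 values overlapped.

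Cideb, the CIDE protein known from liver, where it acts on lipoprotein loading, had 0 counts in all DMSO mice and 13, 14, 30 and 20 counts in SAG mice, or 0.374, 0.333, 0.747 and 0.456 CPM. The SAG mean was at least 5.59-fold above the mean DMSO floor, the groups did not overlap and Cideb was not called. Cideb (chr14:55754050-55758458, minus strand) shares 1451 bases with Nop9 on the opposite strand. Nop9 was at similar levels in both groups (17.37 and 17.97 CPM on average, log2 fold change 0.05), and whether the counting used strand is not given in the sources used here.

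Pnpla2, the gene of adipose triglyceride lipase, measured 22.2, 22.2, 19.3 and 35.3 CPM in DMSO mice and 48.5, 72.4, 46.3 and 51.6 CPM in SAG mice. No SAG mouse fell to the level of a DMSO mouse, and the lipase was 2.21-fold higher (log2 fold change 1.14, SE 0.27, 95% interval 0.55 to 1.73). The neutrophil sums of the same mice were 6463, 5390, 10666 and 15225 CPM in DMSO mice 1 to 4 and 28944, 46150, 31642 and 41012 CPM in SAG mice 1 to 4, and their part in the Pnpla2 difference was not tested. Pnpla2 lies at chr7:141455198-141460743 on the plus strand. The call for Pnpla2, like that for Plin5, was lost when any 1 mouse other than DMSO mouse 4 was left out, when the log2 fold change of Pnpla2 was 0.98 to 1.22.

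Lipe, the gene of hormone-sensitive lipase, measured 11.9, 7.26, 13.5 and 28.1 CPM in DMSO mice and 15.7, 29.9, 18.2 and 19.3 CPM in SAG mice. DMSO mouse 4 exceeded 3 of the 4 SAG mice. The log2 fold change was 0.46 (SE 0.43, 95% interval -0.48 to 1.39), and Lipe was not called. The ratio of Pnpla2 to Lipe counts was 1.9 ± 0.814 in DMSO and 2.68 ± 0.286 in SAG mice, with overlap between the groups.

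Abhd5, the coactivator that adipose triglyceride lipase needs for full activity, measured 27.2, 19.7, 30.7 and 27.4 CPM in DMSO mice and 78.9, 95.5, 67.2 and 77.5 CPM in SAG mice. The groups were far apart, and Abhd5 rose with a log2 fold change of 1.603 (SE 0.22, edgeR adjusted p = 0.0102). It was called under all 15 alternative settings. G0s2, the inhibitor of the same lipase, was looked up after its values were seen and measured 84.4, 125, 240 and 260 CPM in DMSO and 228, 380, 458 and 539 CPM in SAG mice (log2 fold change 1.18, edgeR adjusted p = 0.117). G0s2 was not called by edgeR, but was called higher by DESeq2 (adjusted p = 0.0327), by limma voom (adjusted p = 0.0206), with a replicate block (edgeR adjusted p = 0.0269) and without DMSO mouse 4 (edgeR adjusted p = 0.0313). Abhd5 counts relative to G0s2 counts were 0.106 to 0.322 in DMSO mice and 0.144 to 0.346 in SAG mice, which overlapped.

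Of the 7 genes that act beside the lipases, edgeR called Abhd5 alone, DESeq2 and limma voom also called G0s2 higher, and the median edgeR log2 fold change was 0.33 against -0.08 over all genes tested. Among 21 genes of triglyceride and sterol ester synthesis, edgeR called 1 higher and 1 lower, and 19 were not called (median 0.23). DESeq2 called 2 higher (Dgat1 and Dgat2) and 2 lower (Gpam and Lpin1), and limma voom called 5 higher (Acsl1, Agpat2, Dgat1, Dgat2 and Mogat2) and 1 lower (Lpin1). Both tools also called more of all genes, 812 higher and 413 lower by DESeq2 and 995 and 398 by limma voom, against 404 and 41 by edgeR. Dgat2, which adds the last fatty acid to make a triglyceride, measured 11.7, 11.1, 17.7 and 26.9 CPM in DMSO mice and 50.4, 70.4, 48.7 and 52.9 CPM in SAG mice (log2 fold change 1.72, SE 0.32, edgeR adjusted p = 0.0174). Every SAG mouse was above every DMSO mouse. Its call was lost without DMSO mouse 1, 2 or 3 or SAG mouse 2 or 4 (log2 fold change 1.57 to 1.75).

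Lpin1, the phosphatidate phosphatase that supplies diglyceride to the same pathway, measured 54.5, 68.3, 49.6 and 35.4 CPM in DMSO mice and 29.4, 19.5, 25.9 and 21.6 CPM in SAG mice. Lpin1 fell by 1.11 on the log2 scale (SE 0.27, edgeR adjusted p = 0.0494), with no overlap. This call was lost without any 1 mouse other than DMSO mouse 4. Dgat2 and Lpin1 were thus called in opposite directions.

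The remaining 4 lists held 0 called genes by edgeR. DESeq2 and limma voom each called Cebpb and the fatty acid transporter gene Slc27a4 higher, and no other gene of these lists. Of 13 genes of droplet formation 5 had a log2 fold change above 0 and 8 below (median -0.20, 1 at an unadjusted p under 0.05), and Cavin1, the most abundant, stood at 133.5 ± 109 CPM in DMSO and 118 ± 46.0 CPM in SAG mice. Of 11 genes of fatty acid uptake 5 were above and 6 below (median -0.11, 1 at an unadjusted p under 0.05). Of 15 genes of fatty acid oxidation 6 were above and 9 below (median -0.13, 1 at an unadjusted p under 0.05), with Hadha, the mitochondrial trifunctional enzyme subunit, at 82.2 ± 16.7 and 74.6 ± 0.958 CPM. Of 15 transcription factors of lipid metabolism 11 were above and 4 below (median 0.36, 2 at an unadjusted p under 0.05). Cebpb, a factor of adipocyte and myeloid differentiation and the most abundant of these, stood at 454 ± 116 and 826 ± 123 CPM (log2 fold change 0.86, edgeR adjusted p = 0.0539), and was not called.

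Over all 82 tested genes of these lists, 2 were called higher and 1 lower (median log2 fold change 0.07). In counts, 2 of 82 higher and 1 of 82 lower compare with 2.62% and 0.266% of all genes.

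**Figure D5:**
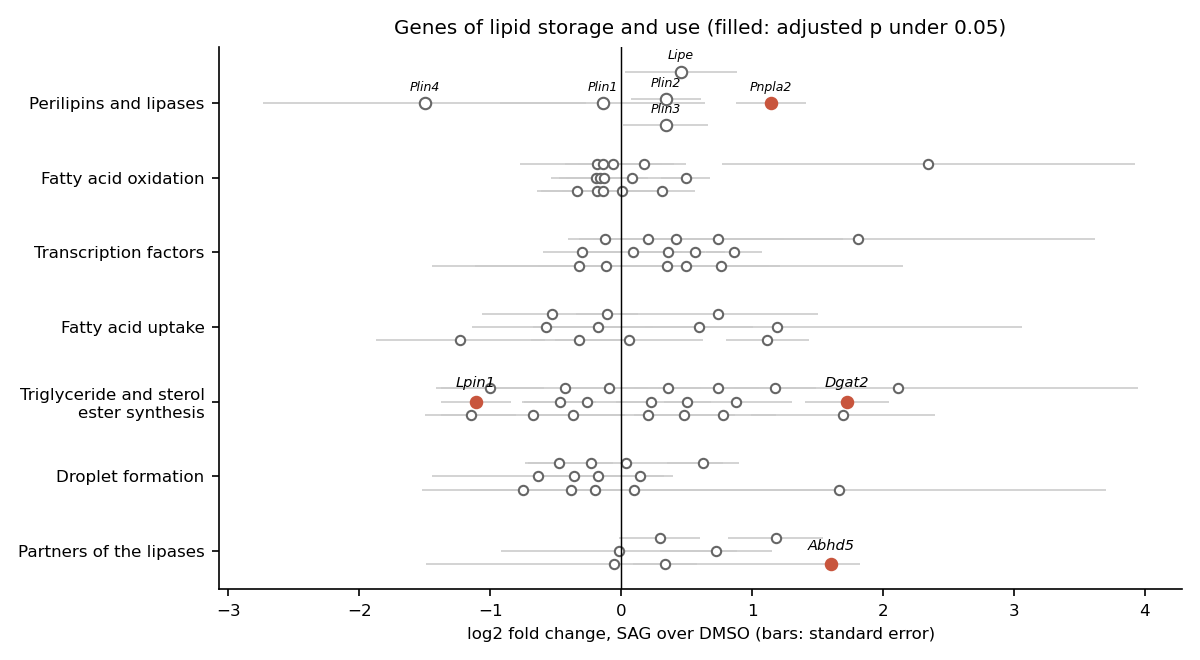
Log2 fold change of SAG over DMSO (horizontal axis, bars for the standard error) of each tested gene of 6 lipid lists and of the members apart from Plin5 and Cideb, whose DMSO counts were 0. Filled points mark the calls, Abhd5, Dgat2 and Pnpla2 above 0 and Lpin1 below, and most open points lay within 1 of 0.

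The genes that followed Plin2 most closely over the 8 mice, by the root mean square difference of log2 levels from each gene's own mean, were Mvd (0.112), an enzyme of cholesterol synthesis, Coa5 (0.176) and Slc45a4 (0.186). None of these was called. For Plin5 the closest genes were Tmem273 (0.567), Ccm2l (0.888) and Vcp-rs (0.901), at larger differences than those for Plin2. Tmem273 and Vcp-rs had 0 counts in DMSO mice and Ccm2l 11 counts in DMSO mouse 1. The measure includes the difference between the groups, so genes close to Plin5 share its step from DMSO to SAG by selection. Nothing is read from their low DMSO counts. In SAG mice 1 to 4 Tmem273 had 197, 93, 33 and 43 counts, Ccm2l 195, 87, 158 and 42, and Vcp-rs 77, 95, 318 and 66. Mouse 1 was the highest for Plin5, Tmem273 and Ccm2l and mouse 3 for Vcp-rs.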

How the data were processed

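Libraries came from sorted mCherry+CD73+ growth plate cells, 1 per mouse (4 DMSO, 4 SAG). The authors deposited whole-number raw counts per gene. The submitters' processing notes name kallisto, DESeq2 and GRCm38, and versions are not given in the sources used here. All 16536 symbols matched GENCODE M21. Counts were tested with edgeR 4.0.16 in R 4.3.3 (filterByExpr, TMM, robust quasi-likelihood test, Benjamini-Hochberg over 15421 genes, threshold 0.05). CPM used TMM factors, and levels per length used the union of exons. A prior count of 2 was added for log2 levels. Floors (3 counts) cover counting error only, and SE and 95% intervals of fold changes come from the fit over mice. P-values treat mice as replicates. The fits were tested on simulated data. Alternatives were other scalings, DESeq2 1.42.0, limma 3.58.1 voom, other filters, a replicate block and leaving out each mouse. Alternatives for Abhd5, G0s2, Dgat2 and Lpin1 as single genes, and for the fold bounds of Plin5 and Cideb, were chosen after seeing the data. Members and lists were chosen with earlier results of these data known. Besides the members, the text names called genes of each lipid list or, with none called, its most abundant gene, neighbours of members, and the 3 genes most like Plin2 and Plin5. A gene that this rule names is not reported here.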

Additional observations from a re-analysis of the deposited data

Results flagged for a closer look

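Among the members, the other lipid genes named and the genes next to the members, 46 groups of 4 mice were examined for a mouse far from the rest, and 2 were found, where chance gives about 1 in 20, or 2.3. Ltb4r2, a leukotriene receptor gene upstream of Cideb on the opposite strand, measured 1.24 CPM in DMSO mouse 1 and 0.067 CPM or less in the other DMSO mice. Rplp2, a ribosomal protein gene 3612 bases upstream of Pnpla2, measured 276 CPM in DMSO mouse 4, against 423 CPM in the nearest DMSO mouse.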

How the results depend on the processing

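Members called higher numbered 1 in place of 2 with DESeq2's size factors, plain library size or no filter on low counts (Plin5 in each), and with DESeq2's test or at least 10 counts in every sample (Pnpla2 in each). With a replicate block 0 were called, and 0 to 2 when each mouse was left out. DESeq2 gave no adjusted p for Plin1, Plin4, Plin5 and Cideb, and Plin4, Plin5 and Cideb had too few counts for the filter of 10. Other lipid genes called higher numbered 6 by DESeq2, 9 by voom, 4 with the filter of 10, 4 with the replicate block and 1 to 9 when each mouse was left out, in place of 2. Those called lower numbered 2 by DESeq2, 0 with no filter, 0 with the replicate block and 0 to 2 when each mouse was left out, in place of 1. Over all genes, where 404 were higher and 41 lower, DESeq2 called 812 and 413, voom 995 and 398, and leaving out each mouse 80 to 1017 and 4 to 343. The filter of 10 gave 87 lower and the replicate block 18. The log2 fold change of Plin1 turned to 0.058 without DMSO mouse 1, over a range of -0.33 to 0.058. With the longest transcript as length, Plin1 in SAG moved to 1.99 TPM and Plin2 to 50.1 TPM in DMSO and 55.9 TPM in SAG. Mice of the same replicate number in the 2 groups had weak correlations of deviations (0.0102 to 0.12). Such values from few mice do not settle whether the numbers mark pairs. Members called lower stayed at 0 throughout. The causes were not tested.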

Other observations

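Of the 82 other lipid genes, 7 were above DMSO in every SAG mouse and 2 below, where 7.9% and 3.84% of all genes were. Besides Abhd5, Dgat2 and Cebpb, those above were Mogat2, an acyltransferase that makes diglyceride (6.08 ± 4.93 and 19.6 ± 6.46 CPM), Soat1, which makes sterol esters (77.2 ± 10.7 and 110 ± 13.7 CPM), the nuclear receptor gene Nr1h2 (77.4 ± 8.94 and 98.7 ± 7.85 CPM) and Acadl, an acyl-CoA dehydrogenase (43.2 ± 4.61 and 60.9 ± 0.473 CPM). Besides Lpin1, Gpam, which starts glycerolipid synthesis in mitochondria, was below (24.1 ± 8.69 and 10.8 ± 1.74 CPM). None of these 5 was called by edgeR (adjusted p = 0.11 to 0.354), although DESeq2 called Gpam lower and limma voom called Mogat2 higher, and they were chosen after their values were seen. The genes most like Pnpla2 over the 8 mice, also looked up afterwards, were Dmxl2 (root mean square difference 0.115), Laptm5 (0.116), a lysosomal protein, and Slc2a6 (0.118). All were called higher. The measure includes the difference between the groups, so these genes share the rise of Pnpla2 by selection. Nothing is read from their calls.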
